A study of Mus musculus with 12 samples.

Results

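Potassium channel genes were examined for c-Fos peaks in excitatory neurons of the mouse hippocampus after kainic acid. The 92 genes were the protein-coding genes on chromosomes 1 to 19 and X whose symbol begins with Kcn and a letter and ends in a digit, out of 21523 protein-coding genes. Peaks came from CUT&RUN, where a nuclease tethered to an antibody releases the DNA around a bound protein so that it can be sequenced. Nuclei carried a CaMK2a-Cre allele and the Cre-dependent nuclear envelope tag LSL-Sun1-GFP, each over a wild-type allele, in C57BL/6 mice aged 3 to 4 weeks. CA1 tissue was taken 2 to 3 h after an injection of kainic acid, which activates glutamate receptors and makes neurons fire as in a seizure, or of phosphate buffered saline (PBS). GFP-positive nuclei were sorted, so the cells are those in which the CaMK2a driver had been active, and 50000 nuclei went into each reaction with a c-Fos antibody or rabbit IgG. The 12 samples form 4 groups of 3 replicates, and the number of animals behind a replicate is not stated in the labels.

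The values are the positions of 3295 peaks of c-Fos against IgG after kainic acid, 3294 of them on the chromosomes used, in 1 list for the whole group. The list carries neither a score nor values for single libraries, so read depth is unknown, and neither a spread between replicates nor a test over samples can be given. The sorted cell type cannot be checked from peak positions. The PBS groups were not analysed here, so whether a peak was also present without kainic acid was not tested. A peak was linked to a gene when its midpoint lay inside the gene or within 100 kb of either end. Exact 95% intervals below (binomial for shares, Poisson for densities) cover counting error over genes or peaks only.

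Potassium channels set the resting potential of neurons, end each action potential and limit how fast cells fire again. Most are built from pore-forming subunits, joined by auxiliary subunits that alter gating or trafficking. In hippocampal pyramidal neurons, A-type, M-type, delayed rectifier, calcium-activated and G-protein-gated potassium currents all restrain excitability. c-Fos is a subunit of AP-1, a transcription factor dimer made after strong firing, which is known to bind the letters TGACTCA and their reverse complement TGAGTCA, and often binds enhancers away from gene starts.

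No linked peak lay at a listed start of these genes. Within 1 kb of a start, 0 of the 67 genes with a listed start had a peak (interval 0 to 5.36%). That share was 1.16% for all protein-coding genes with a listed start, which lies inside the interval. Promoter windows of RefSeq (GRCm38.p6, the assembly of mm10), reaching from 250 bases before to 50 bases after an annotated start, matched 67 of the 92 genes, with 92 windows in all. No peak linked to a potassium channel gene overlapped a window of such a gene. Of the 41 linked peaks, 4 (9.76%, interval 2.72 to 23.1) overlapped a window of another gene, beside 241 of all 3294 peaks (7.32%) that overlapped any listed window. The AP-1 letters TGACTCA, searched on both strands, were found in the windows of 2 of the 67 genes, Kcnk2 and Kcnip3 (2.99%, interval 0.364 to 10.4), beside 5.44% of 17274 protein-coding genes. The CRE letters TGACGTCA, which read the same on both strands and do not contain the AP-1 letters, were found in 0 of the 67 (interval 0 to 5.36%) and in 2.58% of all. A match describes letters, not a bound site. The 250 bases before the start are printed here for both of these genes, which had no peak at the start, and for Rcan1 and Sult2b1, whose windows lay wholly inside a peak linked by distance to Kcne1 and to Kcnj14 and held the AP-1 letters. The windows of Ecd and Fam149b also lay wholly inside a peak, linked to Kcnk16, and that of Gm42056 partly inside one linked to Kcnk1, and these 3 held 0 AP-1 matches. Each printed sequence reads 5′ to 3′ towards the start, with AP-1 and CRE letters in capitals.
Kcnk2 (chr1:189344193-189344442, minus strand): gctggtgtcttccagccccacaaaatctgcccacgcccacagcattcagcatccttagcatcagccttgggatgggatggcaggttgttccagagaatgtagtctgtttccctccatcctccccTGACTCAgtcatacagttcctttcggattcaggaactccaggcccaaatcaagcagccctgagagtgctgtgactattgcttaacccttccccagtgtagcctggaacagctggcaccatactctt
Kcnip3 (chr2:127522095-127522344, minus strand): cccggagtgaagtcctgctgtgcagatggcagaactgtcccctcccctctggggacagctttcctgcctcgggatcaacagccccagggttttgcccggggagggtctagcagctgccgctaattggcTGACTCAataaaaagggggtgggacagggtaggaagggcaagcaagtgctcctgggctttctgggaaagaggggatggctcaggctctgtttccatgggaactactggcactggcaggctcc
Rcan1 (chr16:92400079-92400328, minus strand): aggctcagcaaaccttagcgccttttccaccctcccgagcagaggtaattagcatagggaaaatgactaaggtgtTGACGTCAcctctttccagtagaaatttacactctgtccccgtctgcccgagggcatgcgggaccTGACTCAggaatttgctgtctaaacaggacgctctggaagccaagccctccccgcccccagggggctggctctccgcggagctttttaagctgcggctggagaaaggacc
Sult2b1 (chr7:45742479-45742728, minus strand): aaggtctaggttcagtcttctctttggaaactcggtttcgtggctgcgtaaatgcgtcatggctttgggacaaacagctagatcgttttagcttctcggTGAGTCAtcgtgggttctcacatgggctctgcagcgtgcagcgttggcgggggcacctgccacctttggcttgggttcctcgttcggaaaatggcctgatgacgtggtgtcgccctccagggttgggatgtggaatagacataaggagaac
The AP-1 letters begin 126 bases before the start in Kcnk2, which encodes a mechanically gated leak channel, and 122 bases before it in Kcnip3, which encodes a calcium-binding partner of A-type channels. The nearest peaks lay 71.1 kb from any listed start of Kcnk2 and 663 kb from Kcnip3. In Rcan1, an inhibitor of the phosphatase calcineurin, the AP-1 letters begin 110 bases and the CRE letters 175 bases before the start, and the peak (chr16:92398887-92401286) covers both. In Sult2b1, a sulfotransferase gene, the AP-1 letters begin 151 bases before the start, inside the peak chr7:45741895-45743308. Both of these peaks thus lay at the promoter of a neighbour and not at that of the channel gene.

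Of the 92 potassium channel genes, 31 (33.7%, interval 24.2 to 44.3) had a linked peak, where 21.8% of all protein-coding genes did. A peak inside the gene was found for 12 (13.0%, interval 6.93 to 21.7), beside 5.52% of all. The other 19 genes with a peak had it in the 100 kb flanks. Potassium channel genes were longer than most, with a median of 34.5 kb against 17.3 kb for the other protein-coding genes, and longer genes have more room for peaks. When each gene was set beside the other protein-coding genes in its length class (10 classes of equal size), 24.5 of 92 (26.6%) would have a linked peak, a ratio of 1.26 (interval 0.907 to 1.66 from the count of 31). For peaks inside genes the same reckoning gave 9.21 genes, a ratio of 1.30. With the 200 genes nearest in length to each channel gene the ratio for linked peaks was 1.16. The channel genes thus had a peak somewhat more often than genes of their length in this list, with an interval that includes 1.

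Density per length was also counted. The merged bodies of the channel genes held 19 peaks in 10.7 Mb, or 1.78 per Mb (interval 1.07 to 2.78), beside 1.67 per Mb in the bodies of all protein-coding genes. Their flanks held 22 peaks in 16.9 Mb, or 1.30 per Mb (interval 0.816 to 1.97). The flanks of all protein-coding genes held 1.13 per Mb, but these leave out every gene body. The channel flanks leave out only channel gene bodies and can hold bodies of other genes. The flank densities thus cover unlike sequence, and no excess can be read from them. The median distance from a channel gene to its nearest peak was 181 kb, against 360 kb for all protein-coding genes, a measure that gene length also shortens. In the plot of shares by distance, the channel genes stay at 12 from the gene body out to 10 kb and rise from there to 24 genes (26.1%) at 50 kb and 47 (51.1%) at 200 kb, and to 67 (72.8%) at 500 kb. The shares of all protein-coding genes, not matched on length, were 7.55% at 10 kb, 14.0% at 50 kb, 34.4% at 200 kb and 60.0% at 500 kb. Other genes of the same length classes gave 12.2%, 18.8%, 39.4% and 64.6% at these distances.

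**Figure D1:**
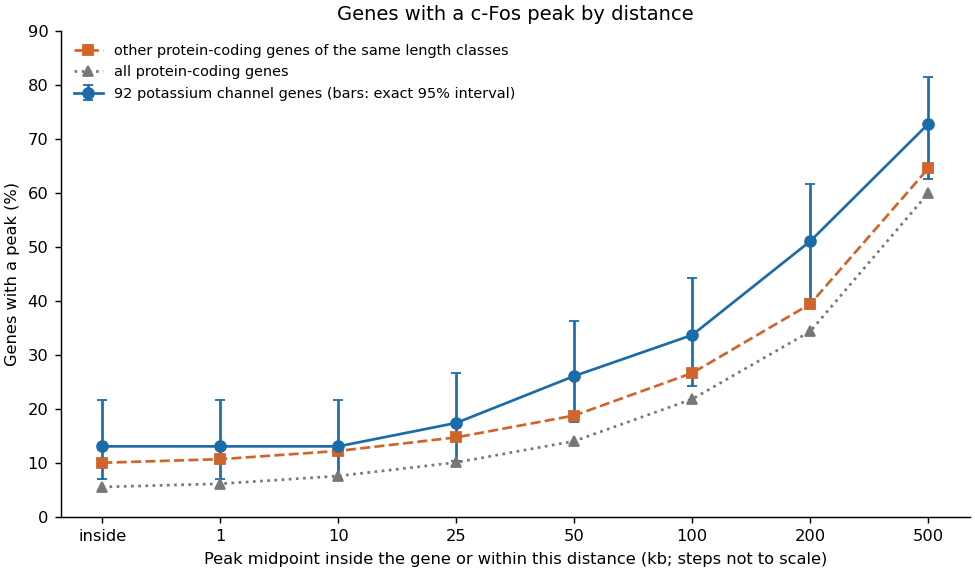
Percentage of genes with a c-Fos peak midpoint inside the gene or within the distance on the horizontal axis (kb, steps not to scale), for the 92 potassium channel genes, for other protein-coding genes in the same length classes, and for all protein-coding genes. At 100 kb the 3 values are 33.7%, 26.6% and 21.8%, and the exact 95% interval of the channel genes (24.2 to 44.3) reaches below the length-matched value.

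Long and short channel genes differed in where the peaks lay. Among the 18 channel genes over 200 kb, 7 (38.9%, interval 17.3 to 64.3) had a peak inside, beside 42.5% of 972 other protein-coding genes of that length. No further long member gained a peak from its flanks, so the share with a linked peak stayed at 38.9%, beside 54.0% of the other genes. Among the 69 channel genes of at most 100 kb, 2 had a peak inside (2.90%, beside 2.61% of the others), but 21 (30.4%, interval 19.9 to 42.7) had a linked peak, beside 19.1%. Between these lengths, 3 of 5 channel genes had a peak inside (60.0%, interval 14.7 to 94.7), beside 18.6% of 1430 others, and the same 3 had a linked peak, beside 34.8%. In the longest of the 10 length classes, 10 of 23 channel genes (43.5%) had a linked peak, beside 43.9% of the other genes, and in the next class, from 58.0 to 110 kb, 0 of 9 had one, beside 27.8%. Short channel genes share some of their flank peaks, as described below, so they are not independent.

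**Figure D2:**
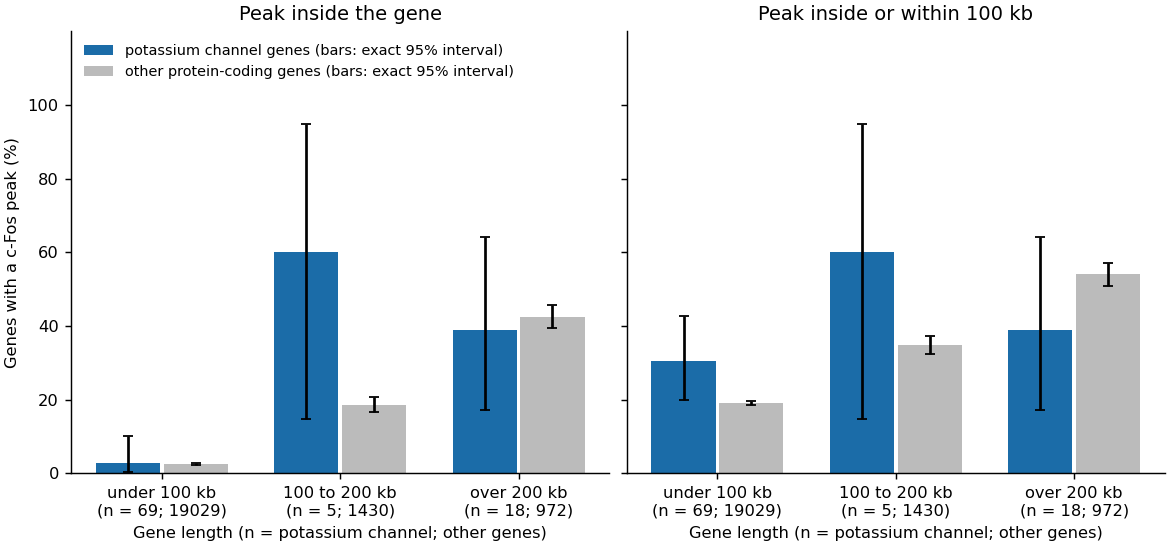
Percentage of genes with a c-Fos peak inside (left) or inside or within 100 kb (right), by gene length, for potassium channel genes and other protein-coding genes. Error lines are exact 95% intervals, which are wide for the 5 and 18 longer channel genes. Among genes under 100 kb the right panel shows 30.4% against 19.1%, and above 200 kb it shows 38.9% against 54.0%.

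Voltage-gated pore genes, which open on depolarization, came to 40, of which 14 (35.0%, interval 20.6 to 51.7) had a linked peak and 5 a peak inside, beside 27.1% and 4.28 genes by length. Kcnd2, which encodes the main pore of the dendritic A-type current in CA1, held most peaks of all channel genes. It spans 514 kb (chr6:21215346-21729805) and contained 5 peaks, which lay 159, 203, 274, 333 and 336 kb from its start. They were 2594, 748, 1093, 2525 and 1303 bp wide. The first 3 stood apart from each other and the last pair was 3.51 kb apart, so all 5 fell in a stretch of 178 kb around the middle of the gene. The 2 other Kcnd genes had none linked: the nearest peak was 262 kb from Kcnd3 and 1862 kb from Kcnd1, which is on the X chromosome.

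Among the Kcnq genes, whose subunits carry the M-current that muscarinic receptors close, Kcnq3 and Kcnq5 each contained 1 peak. That in Kcnq3 was at chr15:66238646-66240096 in a gene of 300 kb, and that in Kcnq5 at chr1:21675875-21677435, 286 kb from the start of a gene of 564 kb. Kcnq1, mainly a channel of heart and epithelia, had its nearest peak 991 kb away. Of the 8 Kcnh genes, Kcnh1, which encodes an ether-a-go-go channel, had 1 peak inside, 77.8 kb from its start. Kcnh4 had 1 peak 66.1 kb before its start, which lay inside Stat5b. The long genes Kcnh5 (280 kb), Kcnh7 (491 kb) and Kcnh8 (376 kb) had none linked, with nearest peaks at 249, 131 and 500 kb.

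Kcnc4, a gene of 22.0 kb for a rapidly repolarizing channel, was the shortest channel gene with a peak inside. Its 2 peaks, 1788 and 2453 bp wide, were 3.65 kb apart and lay 16.2 and 12.6 kb from the nearest listed start, on the side of transcription. Kcnc1 and Kcnc2 had none linked, with nearest peaks at 654 and 686 kb. Neither Kcnb gene had a linked peak, and Kcnb2, a delayed rectifier gene of 437 kb, had its nearest peak 802 kb away.

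Kcna genes, only some of which encode low-threshold channels of axons, had peaks in the flanks and none inside, as short genes with a median of 11.0 kb. Of 8 genes, 5 had a linked peak (62.5%, interval 24.5 to 91.5), beside 1.52 genes by length. A peak inside was found for 0, beside 0.143 genes by length, so the lack of inside peaks says little about the Kcna genes. These genes stand in groups, so the 5 genes rest on 6 peaks. Kcna1 and Kcna5 shared 2, at chr6:126569424-126570501 and chr6:126593934-126597242, the second of which was 3309 bp wide and the widest linked to any channel gene. Kcna2 and Kcna3 shared 1, at chr3:107062533-107063311, which lay 28.0 kb before the start of Kcna2 and 24.8 kb beyond the end of Kcna3. Kcna4, an A-type channel gene, had 3 peaks of its own, at 87.8 kb before its start and 66.4 and 88.0 kb beyond its end, and no other protein-coding gene was nearer to them. The merged flanks of the Kcna genes held 5.53 peaks per Mb (interval 2.03 to 12.0), a value singled out among 20 subfamilies after it was seen. Flanks of all protein-coding genes held 1.13 per Mb. Those flanks leave out every gene body and the Kcna flanks only Kcna bodies, so they cover unlike sequence. Kcna6, Kcna10 and Kcna7 missed the limit, with nearest peaks at 113, 120 and 216 kb.

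Electrically silent subunits form channels only together with other pore subunits. Of these 10 genes 3 had a linked peak, beside 21.8% of all protein-coding genes. Kcnv1 and Kcnv2 had 1 each, at 79.5 and 14.7 kb, and both were the protein-coding gene nearest to their peak. Kcnf1 had 1 at 86.5 kb, nearer to another gene. The 4 Kcng and 3 Kcns genes had none linked.

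**Figure D3:**
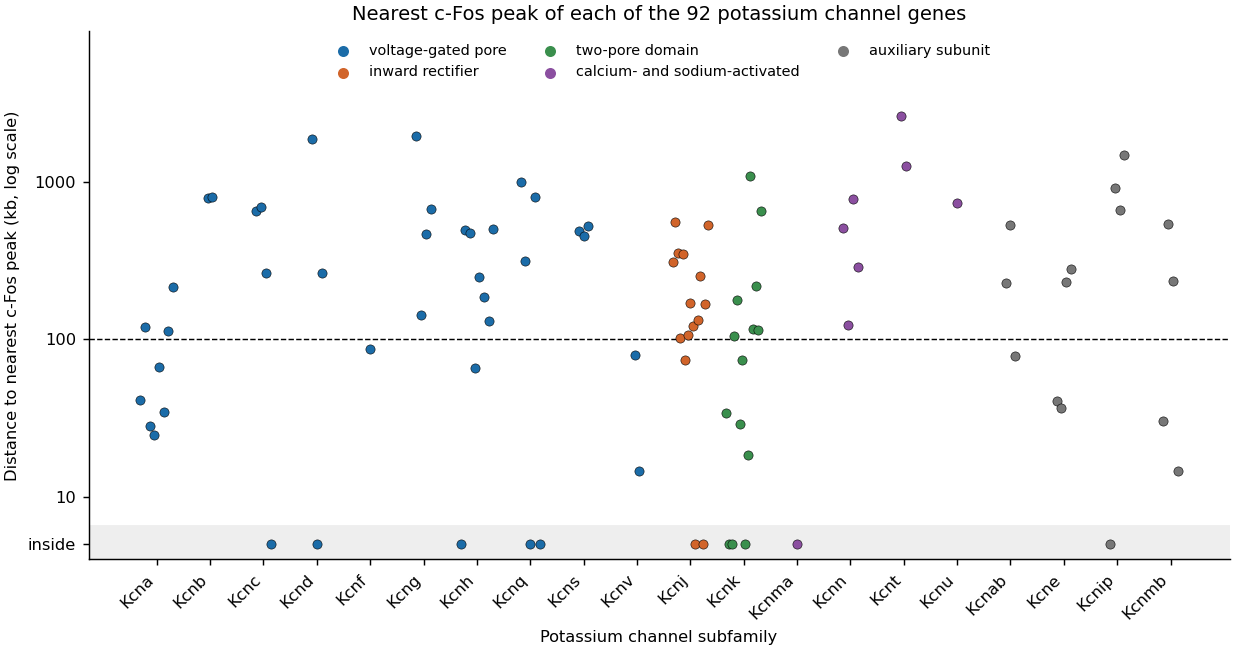
Distance from each of the 92 potassium channel genes to its nearest c-Fos peak midpoint (kb, log axis), by subfamily, coloured by role. Points in the grey band have a peak inside the gene (12 genes) and the dashed line marks 100 kb. No point lies between the band and 10 kb, and 5 of 8 Kcna points lie between 24.8 and 66.4 kb.

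Inward rectifiers pass potassium mainly near rest and include the channels that G proteins open. Of 15 Kcnj genes, 3 (20.0%, interval 4.33 to 48.1) had a linked peak, beside 24.0% by length. A peak inside was found for 2, Kcnj3 and Kcnj6, beside 0.995 genes by length. They encode subunits that join into the G-protein-gated channel of hippocampal neurons. They are also the 2 longest Kcnj genes, so function and length cannot be told apart here. Kcnj3 (186 kb) had 1 peak inside, at chr2:55532183-55533385, 121 kb from its outermost start, and another 95.3 kb beyond its end. Kcnj6 (253 kb) had 2 inside, at chr16:94940268-94941535 and chr16:94923603-94926115, 56.8 and 72.8 kb from its start and 16.0 kb apart. The third, Kcnj14, was linked by the peak on the Sult2b1 promoter, 73.9 kb away. Kcnj9, which encodes a further G-protein-gated subunit, and its neighbour Kcnj10, the main inward rectifier of astrocytes, had their nearest peaks at 532 and 552 kb. Several others narrowly missed the limit, among them Kcnj12 at 102 kb and Kcnj15 at 106 kb, so 9 of 15 had a peak within 200 kb, beside 34.4% of all protein-coding genes.

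Leak channels of the K2P class, which hold the resting potential, had the highest share of the 5 roles, though the intervals of all 5 overlap. Of 14 Kcnk genes, 7 (50.0%, interval 23.0 to 77.0) had a linked peak and 3 a peak inside, beside 24.3% and 0.989 genes by length. Kcnk2 and Kcnk10 encode related channels opened by stretch and lipids. Kcnk2 (195 kb) had 1 peak inside, at chr1:189271469-189273121, and another 87.4 kb beyond its end. Kcnk10 (149 kb) had 1 inside, 42.8 kb from its outermost start. Kcnk12, of 52.2 kb, had 1 inside, 34.6 kb from its start. The flank peaks of the other 4 all lay nearer to another gene. Kcnk3, an acid-sensitive leak channel, had 1 at 18.4 kb, nearest to Slc35f6, and Kcnk1 had 1 at 34.0 kb, nearest to Map3k21. Kcnk18 had 1 at 73.8 kb, nearest to Vax1. Kcnk16, best known from pancreatic islets, had 2 at 29.1 and 78.7 kb, inside Nudt13 and Ecd. Counting for each peak its nearest protein-coding gene, 3 of 14 Kcnk genes kept a peak, beside 8.63% of all protein-coding genes. The 7 without one included Kcnk13, Kcnk7 and Kcnk5, with nearest peaks at 104, 115 and 117 kb, and Kcnk9 at 652 kb.

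Of 8 pore genes of calcium- and sodium-activated channels, 1 (12.5%, interval 0.316 to 52.7) had a linked peak, beside 33.2% by length. It was Kcnma1, which encodes the large-conductance channel opened jointly by calcium and voltage. Kcnma1 spans 713 kb and held 2 peaks, at chr14:23758124-23760424 and chr14:23645233-23646186, 246 and 359 kb from its start and 114 kb apart. Kcnn2, the small-conductance channel gene of CA1 dendrites, is 417 kb long and had its nearest peak 123 kb away. Kcnn1, Kcnn3 and Kcnn4 had theirs at 505, 779 and 287 kb. The sodium-activated channel genes Kcnt1 and Kcnt2 were among the farthest from any peak, at 2602 and 1262 kb, and Kcnu1, a channel of sperm, was at 733 kb.

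Auxiliary subunits do not form pores. Of 15 such genes, 6 (40.0%, interval 16.3 to 67.7) had a linked peak, beside 26.9% by length, and these 6 rested on 5 peaks. Kcnip1, which encodes a calcium sensor that binds A-type channels, had 1 peak inside, at chr11:33932357-33933277, 60.5 kb from the start of a gene of 364 kb. Kcnmb1, a subunit of the large-conductance channel best known from smooth muscle, lies within Kcnip1 on the opposite strand and was linked to the same peak at 30.1 kb. Kcnmb4, the neuronal form, had 1 peak 14.6 kb beyond its end, nearest to Ptprb. Kcne1 and Kcne2, small single-span subunits, shared the peak chr16:92254557-92256920, which lay 36.7 kb before the start of Kcne2, and Kcne1 was also linked to the Rcan1 promoter peak at 40.6 kb. Kcnab3 had 1 at 78.0 kb, inside Kdm6b. Kcnip4 is the longest channel gene here, at 1136 kb, and its nearest peak was 1466 kb away. The merged bodies of the auxiliary genes, 2.53 Mb in all, held this 1 peak in Kcnip1. Kcnab1 (429 kb) and Kcnmb2 (298 kb) were further long genes with none linked.

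The positions of peaks inside channel genes were set against annotated starts. The 18 inside peaks with a known direction of transcription lay between 16.6% and 80.1% of the way through the gene, 8 of them in the first 50%. Kcnd2 alone held 5 of these 18, and positions inside other protein-coding genes were not computed. Of the 67 channel genes with a listed start, 0 had a peak within 10 kb of one (interval 0 to 5.36%). Of all protein-coding genes with a listed start 2.87% did, a share inside that interval. Within 50 kb of a start, 10 of 67 (14.9%, interval 7.40 to 25.7) had a peak, beside 9.92%. Across the 36 pairs of a peak and a channel gene with a listed start, the median distance to that start was 72.4 kb. No channel gene had its nearest peak outside its body and within 10 kb, which held for 2.04% of all protein-coding genes. Exons and introns were not told apart here.

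**Figure D4:**
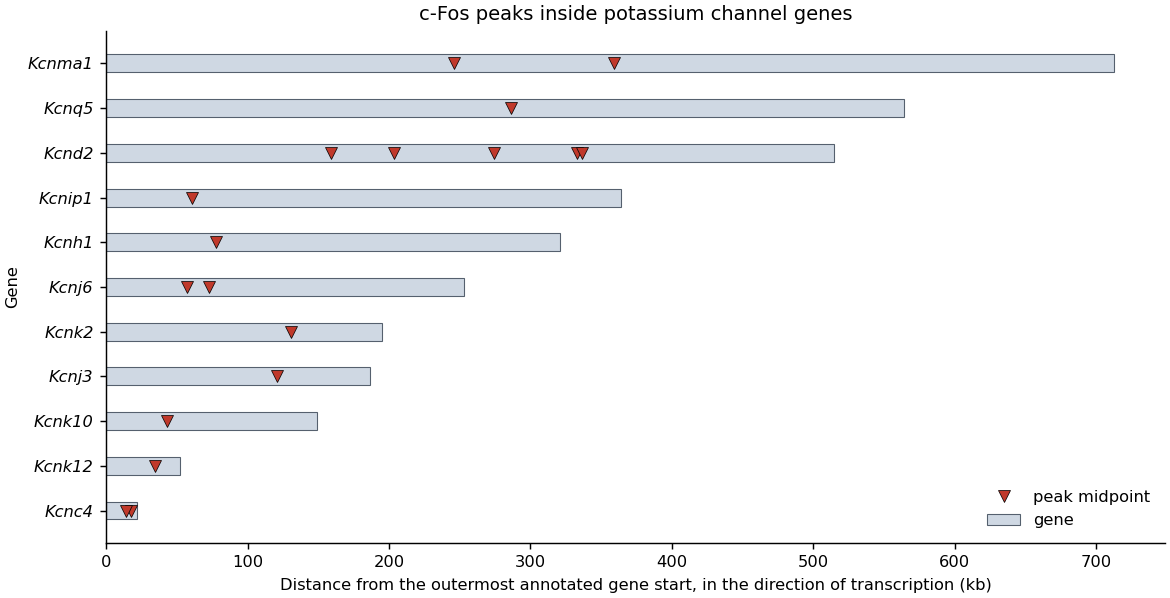
Bars show the 11 potassium channel genes with a peak inside and a known direction of transcription, drawn to scale from their outermost annotated start (kb), and triangles show c-Fos peak midpoints. Kcnd2 carries 5 triangles between 159 and 336 kb, Kcnma1, Kcnj6 and Kcnc4 carry 2 each, and the others 1 each. Kcnq3, without a listed start, is left out.

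A link by distance does not assign a peak to a gene. Of the 41 linked peaks, 30 had a channel gene as the nearest protein-coding gene. In the flanks of a channel gene but inside another protein-coding gene lay 7. Among these 7 was the peak linked to Kcnmb1, which lay inside the channel gene Kcnip1. For 12 of the 31 genes every linked peak was nearer to another gene, which leaves 19 of 92 (20.7%), beside 8.63% of all protein-coding genes by the same count. These shares are not matched on length. Against other genes of the same length classes the ratio for this count was 1.51. Linked peaks were 676 to 3309 bp wide, with a median of 1411 bp, beside 1341.5 bp over all peaks used.

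Genes that work with potassium channels but carry other names were listed as well. Of 22 partner genes, 8 (36.4%, interval 17.2 to 59.3) had a linked peak, beside 28.6% by length. Dpp6 and Dpp10, which encode membrane partners of A-type channels, had 2 and 1 peaks inside. These are long genes, of 910 kb for Dpp6 and 1514 kb for Dpp10. Adam22, a receptor for the secreted protein Lgi1 beside axonal channels, contained 2 peaks, and Lgi1 had 1 at 13.7 kb. Nedd4l, a ubiquitin ligase that removes channels, contained 2 and had another in its flanks. Cntnap2, which anchors axonal Kcna channels, contained 1. Of 14 receptor genes that act on potassium channels through G proteins, 5 (35.7%, interval 12.8 to 64.9) had a linked peak, beside 27.4% by length. Gabbr2, encoding the GABA-B subunit that couples to G proteins, contained 2, and Gabbr1 had 1 at 87.4 kb. Chrm2 contained 1. Cnr1, the cannabinoid receptor, had 1 at 43.0 kb, and Chrm1, the muscarinic receptor that closes M-channels, had 1 at 98.1 kb.

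Voltage-gated calcium and sodium channel genes, the nearest class in structure, were set beside the potassium channel genes. Of 40 such genes, 11 (27.5%, interval 14.6 to 43.9) had a linked peak and 7 had one inside. They were longer, with a median of 104 kb, and other genes of their length would give 13.4, a ratio of 0.824 against 1.26 for the potassium channel genes. Their bodies held 1.78 peaks per Mb, the same to 3 digits as the potassium channel bodies. Most peaks were linked to Cacna2d1, with 4, and to Cacna2d3, with 3, which encode auxiliary calcium channel subunits, and to Scn3b, a sodium channel auxiliary subunit, with 3 in its flanks. Cacnb2 had 2. The difference between the classes was not tested.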

How the data were processed

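CUT&RUN libraries came from 4 groups of 3 replicates, grouped by the sample titles. The deposited file is a peak list of 3 columns (chromosome, start, end) without header or score. The submitters' processing notes name Trimmomatic 0.36, Bowtie2 2.2.9, bedtools 2.27.1, SEACR 1.1 and the builds mm10 and sacCer3. Neither their settings nor the way replicates were combined is stated there. It was used as the list of the kainic acid c-Fos group, and 1 peak on an unplaced sequence was left out. Genes came from a RefSeq table of GRCm38.p6, kept where the start was at or above 3000000. Members and lists were chosen with earlier results of these data known. Length matching used the share of other genes in the same of 10 length classes, with no draws and no test. Genes were named where a peak lay inside, by subfamily for most and nearest peaks, for near misses, for length over 200 kb and for shared peaks. Some of these genes are not reported here. Code was tested on simulated peaks. Alternatives covered peak width, merging, link distance, nearest gene, chromosomes and matching. Python 3.11.15, pandas 2.3.3 and scipy 1.17.1 were used.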

Additional observations from a re-analysis of the deposited data

How the results depend on the processing

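No paired analysis was possible because single replicates have no values in the file, and none could be left out. Of 66 alternatives over 14 results, 46 kept the value (counts within 1.5 times, ratios and densities within their interval). For the ratio that interval, 0.907 to 1.66, includes 1, so a ratio without any excess would also count as kept. Some alternatives, such as merging peaks or leaving out the X chromosome, changed the input little. The ratio of channel genes with a peak to the length-matched background ran from 1.07 (10 kb link) to 1.55 (no matching) over 13 alternatives. It was 1.13 with the 200 genes nearest in length and no X chromosome, chosen after seeing the data. Counts that follow from a nearer or farther link moved: 12 channel genes at 10 kb, 47 at 200 kb and 19 with the nearest gene only, and 19 and 71 distinct peaks at 10 and 200 kb. At 10 kb the flanks held 0.0 peaks per Mb. At 200 kb, 34.4% of all protein-coding genes had a peak. So did 9 of 15 inward rectifier, 11 of 14 K2P, 2 of 8 calcium- and sodium-activated and 19 of 40 calcium and sodium channel genes. With the nearest gene only, 8.63% of all protein-coding genes had a peak. By that count 3 of 14 K2P, 2 of 15 auxiliary, 3 of 14 receptor and 7 of 40 calcium and sodium channel genes did. The wider 1647 peaks halve the list by construction: 22 distinct peaks stayed linked, and densities were 1.03 per Mb inside and 0.651 in flanks. With these peaks 4 of 14 K2P, 3 of 15 auxiliary and 2 of 14 receptor genes had a peak. Among the wider peaks, 21 of the 92 channel genes (22.8%) had a peak, beside 12.6% of all protein-coding genes. With length matching the ratio for the wider peaks was 1.45. Unknown read depth and peak threshold limit every count of genes without a peak.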

Other observations

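Beyond the 100 kb limit, 16 further potassium channel genes had their nearest peak between 100 and 200 kb. The share with a peak rose from 33.7% to 51.1% between these limits, and from 21.8% to 34.4% for all protein-coding genes. For other genes of the same length classes it rose from 26.6% to 39.4%. Of the 92, 6 were over 1 Mb from any peak: Kcnt1, Kcng1, Kcnd1, Kcnip4, Kcnt2 and Kcnk4. The share of all genes over 1 Mb away was not computed, but over 500 kb away were 27.2% of channel genes and 40.0% of all protein-coding genes. These shares were not matched on length. Kcna4 had most peaks within 500 kb, with 10, of which 3 lay within 100 kb, followed by Kcnd2 with 7 and Kcnk2 with 6. Kcnn2, Kcnj15, Kcnk13 and Kcna10, none of which had a linked peak, had 5 each within 500 kb, and Kcne4 had 4. These genes were singled out after their values were seen.

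Of the 20 subfamilies, 6 had no linked peak in any gene: Kcnb, Kcng, Kcnn, Kcns, Kcnt and Kcnu. They hold between 1 and 4 genes each, so an interval for a single subfamily reaches at least 60.2%.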
